A study of Rattus norvegicus with 36 samples.

Results

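The comparison described here is the difference between 2 overload responses in cultured rat alveolar macrophages: the change from control to overload with G1-1 particles minus the change from control to overload with G3-1 particles. Its members were chosen by group label, and they are the 12 libraries of 4 groups, G1-1 control, G1-1 overload, G3-1 control and G3-1 overload, with 3 biological replicates each, of 36 libraries in the series. The series compared 4 particles, the carbon black Printex90 and the titanium dioxides G1-1, G3-1 and Bayertitan, each with a separate set of control, non-overload and overload cultures. It asked how alveolar macrophages respond to particle overload. All 4 groups held primary alveolar macrophages of male F344 rats, which were kept in culture for 5 days in medium with fetal bovine serum and were exposed for 4 days. The sources used here give neither the age of the rats nor the amount of particle behind each condition, so the 2 overload conditions are compared by label and not at a matched dose. Whether the replicates of a group are different animals or different dishes is not stated in the labels, and the spread that the p-values rest on may therefore be technical.

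Alveolar macrophages are the resident phagocytes of the air spaces, and they engulf inhaled particles and break down what can be broken down in lysosomes. Particles that resist digestion stay inside the cell, and overload is the name for a burden at which macrophages no longer clear what they have taken up. The cell's capacity to make and fold proteins (ribosomes, initiation factors, chaperones of the endoplasmic reticulum), its sensors and its antigen presentation by MHC class II molecules are programmes that can be read from such cells, beside the lipid and lysosome genes that handle engulfed material. A positive difference below means that overload raised a gene more, or lowered it less, with G1-1 than with G3-1, and a negative difference means the opposite. Levels are in CPM, the counts of a gene relative to the total of its library, scaled between libraries by the trimmed mean of M-values, and they are compared between libraries for 1 gene at a time, since they are not divided by gene length.

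The libraries carried macrophage transcripts and epithelial keratin transcripts, and some of them also carried fibroblast transcripts. Total counts of the 12 libraries ran from 30419757 to 43205421. Relative to plain library totals, the macrophage genes Mrc1 (936 to 1170 CPM), Fabp4 (1030 to 1370 CPM), Itgax (767 to 1040 CPM) and Pparg (61.5 to 94.8 CPM) were high in all 12, whereas Marco and Ear1, which are also held to mark alveolar macrophages, stayed below 1 CPM. The T cell marker Cd3e, the B cell marker Ms4a1 and the surfactant gene Sftpc were at most 0.21, 0.0312 and 0.028 CPM. Below 1 CPM in all 12 were 9 of 14 T and NK, 7 of 10 B and 5 of 13 alveolar epithelial markers. Others were higher, such as Cd4 (67.6 to 128 CPM), Klrd1 (19.2 to 49.8 CPM), Cd79a (3.6 to 5.44 CPM) and Abca3 (186 to 268 CPM). The epithelial keratin Krt7 ran from 500 to 1090 CPM. Col3a1, a fibrillar collagen of fibroblasts, exceeded 10 CPM in 5 of the 12 libraries: replicate 2 of G1-1 overload (17.6 CPM), replicates 1 and 2 of G3-1 control (31.2 and 110 CPM) and replicates 1 and 2 of G3-1 overload (35.5 and 31.4 CPM). It was at most 2.88 CPM in the libraries of the series below that limit. The mean log2 level of 16 tested fibroblast and matrix markers was 2.6 to 4.51 in these 5 libraries and 0.0133 to 0.355 in the other 7, so the results below were also fitted with this mean as a covariate and without these libraries.

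**Figure D1:**
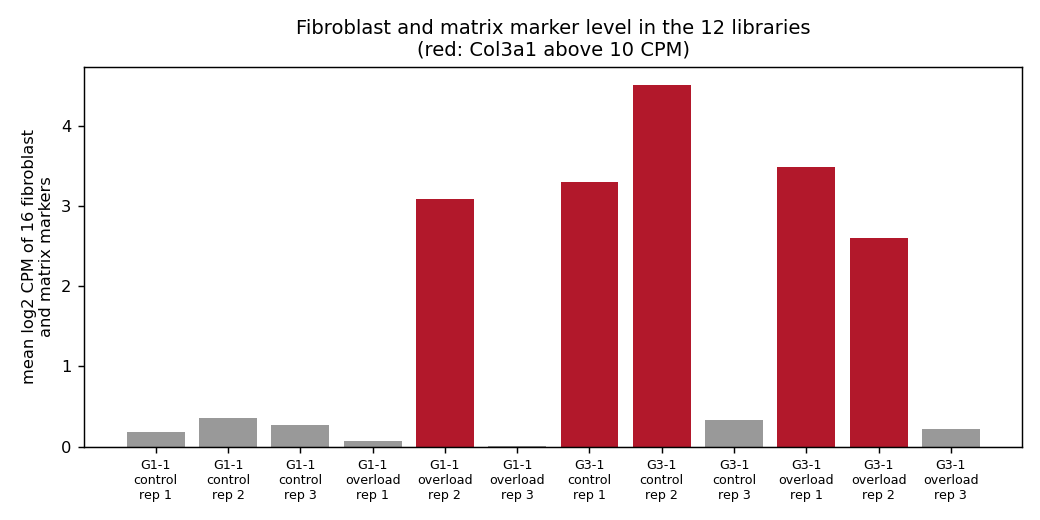
Mean log2 CPM of 16 fibroblast and matrix marker genes (vertical axis) in each of the 12 libraries (bars), with libraries above 10 CPM of Col3a1 in red. The 5 red bars lie between 2.6 and 4.51 and the 7 grey bars between 0.0133 and 0.355; 4 of the red bars are G3-1 libraries.

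The overload response differed between the particles mostly in genes that were called with G1-1 and not with G3-1. In edgeR's quasi-likelihood test over 14606 genes, 1355 genes (9.28%) passed an adjusted p of 0.05 in the difference, 455 of them higher (3.12%) and 900 lower (6.16%). Of the 900 lower genes, 874 fell with G1-1 and were not called with G3-1, and over the 900 the median log2 change was -0.418 with G1-1 and -0.0024 with G3-1. Of the 455 higher genes, 431 rose with G1-1 and were not called with G3-1, and over the 455 the medians were 0.345 and 0.0343. In 1325 of the 1355 genes the G3-1 change was the smaller in size. The differences were modest in size: 46 genes differed by 2-fold or more, 8 higher and 38 lower. The count of higher genes rested on single libraries: it was 253 without replicate 3 of G1-1 overload, 254 and 279 without replicates 2 and 3 of G1-1 control, 279 without replicate 1 of G3-1 control and 298 without replicate 2 of G3-1 overload, while the count of lower genes stayed between 766 and 919 with any 1 library left out. These are bulk cultures, in which fewer cells of a type and less RNA per cell cannot be told apart.

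Each response on its own had a different extent. With G1-1, 4105 genes (28.1%) were called between overload and control, 1997 higher (13.7%) and 2108 lower (14.4%), and 169 of them changed by 2-fold or more. With G3-1, 83 genes (0.568%) were called, 76 higher (0.52%) and 7 lower (0.0479%), and 68 of the 83 were also called in the same direction with G1-1. Of the 4105 genes called with G1-1, 3141 had the same sign with G3-1, and 2783 did not pass the test of the difference. The Pearson correlation of both log2 changes was 0.129 across the 14606 genes and 0.544 across the genes called with G1-1, a description across genes, which are not independent replicates. Between the 2 control groups edgeR called 0 genes, with 1064 at an unadjusted p under 0.05, and DESeq2 called 15. The number of G3-1 calls rested on single libraries: it was 26 without replicate 3 of G3-1 overload, 32 and 33 without replicates 1 and 2 of G3-1 control, 233 without replicate 3 of G3-1 control and 149 without replicate 3 of G1-1 overload, and 0 without the libraries high in Col3a1, where each G3-1 group kept 1 library that was assumed to vary like the other groups and 1180 genes had an unadjusted p under 0.05.

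**Figure D2:**
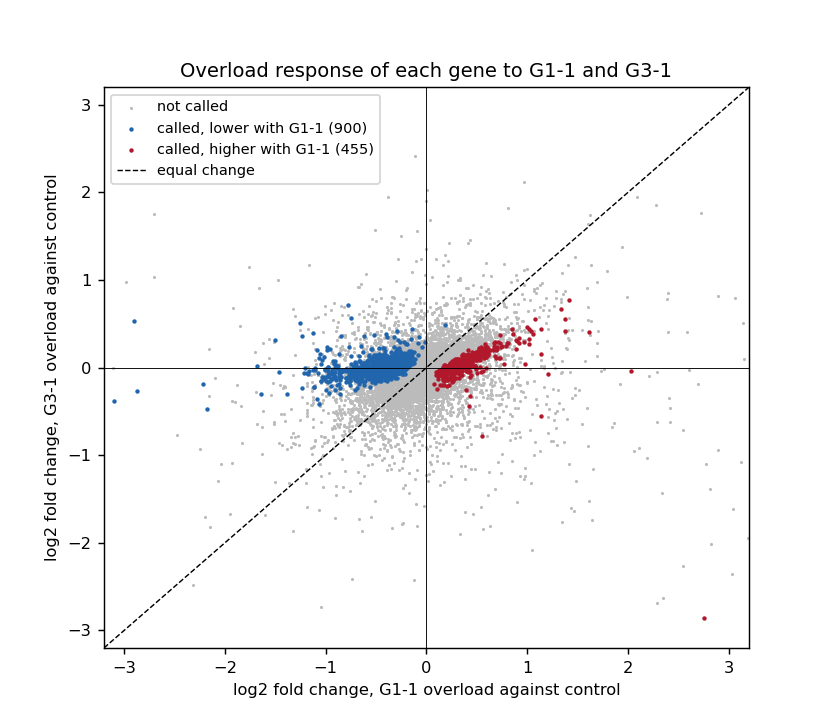
log2 fold change of overload against control with G1-1 (horizontal axis) and with G3-1 (vertical axis), 1 point per tested gene, with genes called lower (blue, 900) or higher (red, 455) in the difference and the line of equal change dashed. Called genes spread along the horizontal axis and lie close to 0 on the vertical axis; 94 genes, 2 of them called, fall outside the axis range of 3.2.

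Hsp90b1 and Nucb2 had the smallest adjusted p-values among the genes called lower. Hsp90b1, the HSP90 chaperone of the endoplasmic reticulum, was at 723, 704 and 726 CPM in G1-1 control and 426, 425 and 409 CPM in G1-1 overload, against 709, 725 and 744 CPM in G3-1 control and 690, 695 and 663 CPM in G3-1 overload. The G1-1 overload libraries lay far below the other 9, and the G3-1 overload libraries lay a little below the G3-1 controls. Its log2 difference was -0.68 (SE 0.04, adjusted p = 2.7e-11), made of a fall by 0.77 on the log2 scale with G1-1 and a change of -0.09 with G3-1 that was not called (95% interval -0.15 to -0.03). The 3 G1-1 non-overload libraries were at 674, 659 and 656 CPM, between control and overload and nearer to control.

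Other leading genes showed the same split between G1-1 overload and the rest. Nucb2, which encodes the calcium-binding protein nucleobindin, was at 161, 162 and 167 CPM in G1-1 control and 100, 94.4 and 97.6 CPM in G1-1 overload, against 163, 155 and 167 CPM in G3-1 control and 172, 175 and 183 CPM in G3-1 overload, with a log2 difference of -0.88 (SE 0.06, adjusted p = 2.7e-11). Sec62, part of the machinery that moves new proteins into the endoplasmic reticulum, was at 77 to 78.7 CPM in G1-1 control, 45.7 to 48 CPM in G1-1 overload, 77 to 81.2 CPM in G3-1 control and 76.5 to 81.9 CPM in G3-1 overload, with a log2 difference of -0.73 (SE 0.06, adjusted p = 3.3e-09). Ddx23, an RNA helicase of the spliceosome, was at 129, 127 and 130 CPM in G1-1 control and 66, 71 and 69.7 CPM in G1-1 overload, against 126, 122 and 138 CPM in G3-1 control and 127, 118 and 140 CPM in G3-1 overload, with a log2 difference of -0.90 (SE 0.07, adjusted p = 6.3e-10). In each of these 3 genes the G1-1 overload libraries stayed apart from all others, and the G3-1 groups overlapped for Sec62 and Ddx23 but not for Nucb2. Syf2, a splicing factor, had a log2 difference of -0.96 (adjusted p = 4.6e-10). Ftsj3, an RNA methyltransferase of ribosome assembly, differed by -0.76 (adjusted p = 1.0e-09) and the nucleolar gene Nol7 by -0.98 (adjusted p = 1.0e-09). Ccdc124, which encodes a ribosome-binding protein, was at 28.5 to 29.6 CPM in G1-1 control, 12 to 13.7 CPM in G1-1 overload, 28.5 to 31.5 CPM in G3-1 control and 27.3 to 31.8 CPM in G3-1 overload, with a log2 difference of -1.13 (SE 0.08, adjusted p = 2.5e-10). Nudc, a gene linked to the dynein motor, differed by -1.01 (adjusted p = 3.6e-09). All 10 of these leading genes (with Eif5b, described with the initiation factors) were called in each of the 12 fits that left out 1 library, with the fibroblast marker level as a covariate and without the libraries high in Col3a1.

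Within the list of the unfolded protein and ATF4 responses, 5 of 31 tested members were lower in the difference (16.1%) and 1 was higher (3.23%), with a median log2 difference of 0.06 against 0.00935 over all genes. The 5 lower members were Hsp90b1, Dnajc3, Calr, Hspa5 and Ddit3, and values of Hspa5 and Ddit3 are given by choice after they were seen. Hspa5, the chaperone BiP, was at 645, 597 and 633 CPM in G1-1 control and 515, 513 and 486 CPM in G1-1 overload, against 624, 617 and 659 CPM in G3-1 control and 582, 580 and 588 CPM in G3-1 overload. It was lowest in G1-1 overload, and its difference of -0.19 (SE 0.05, adjusted p = 0.024) was small. Calr, the calcium-binding chaperone calreticulin, was at 1130 to 1170 CPM in G1-1 control, 941 to 966 CPM in G1-1 overload, 1150 to 1270 CPM in G3-1 control and 1140 to 1260 CPM in G3-1 overload, with a log2 difference of -0.27 (SE 0.06, adjusted p = 0.00296). Dnajc3, a co-chaperone of BiP, was at 75.5 to 86.1 CPM in G1-1 control, 58.1 to 64.6 CPM in G1-1 overload, 73.4 to 79.1 CPM in G3-1 control and 74.6 to 80.9 CPM in G3-1 overload, with a log2 difference of -0.43 (SE 0.08, adjusted p = 2.6e-04). Ddit3, the stress transcription factor CHOP, changed by -0.32 with G1-1, had a G3-1 value of 0.24 that was not called, and differed by -0.56 (adjusted p = 0.0342). Hspa5 and Ddit3 were called in 10 and 6 of the 12 leave-out fits and not without the libraries high in Col3a1. Psat1, a serine synthesis enzyme among the ATF4 targets, was the member that was higher, at 0.38 (adjusted p = 0.00255), and it rose with both particles.

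Promoters of the lower chaperone genes are shown because they share a motif known from the endoplasmic reticulum stress response. This element, CCAAT and CCACG with 9 free bases between them, binds NF-Y and ATF6 in mammals. It was searched on both strands in the 250 bases before the RefSeq start, and it occurred in 0.0657% of 33469 rat promoters. Among the 27 list members with a promoter sequence it occurred in 6, which were the lower genes Hsp90b1, Dnajc3, Calr and Hspa5 and 2 genes that were not called. The motif was chosen after the values had been seen, and a match describes the letters only. The sequences are from RefSeq's GRCr8 assembly, 5′ to 3′ on the strand of the gene, with each copy of the motif or of its reverse complement in capitals. They lie at chr7:23012294-23012543 (minus strand) for Hsp90b1, chr15:102432417-102432666 (plus strand) for Dnajc3, chr19:40213117-40213366 (plus strand) for Calr and chr3:38452766-38453015 (plus strand) for Hspa5.
Hsp90b1: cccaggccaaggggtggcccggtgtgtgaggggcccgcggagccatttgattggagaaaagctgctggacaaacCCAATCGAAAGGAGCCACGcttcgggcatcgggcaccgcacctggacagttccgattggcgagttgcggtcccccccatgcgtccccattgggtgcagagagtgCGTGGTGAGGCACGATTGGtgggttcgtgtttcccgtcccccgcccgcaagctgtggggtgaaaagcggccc
Dnajc3: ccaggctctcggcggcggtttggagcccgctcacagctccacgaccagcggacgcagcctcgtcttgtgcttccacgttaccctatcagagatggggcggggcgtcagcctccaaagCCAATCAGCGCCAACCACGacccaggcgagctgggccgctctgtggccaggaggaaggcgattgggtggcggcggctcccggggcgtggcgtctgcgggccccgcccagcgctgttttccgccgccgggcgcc
Calr: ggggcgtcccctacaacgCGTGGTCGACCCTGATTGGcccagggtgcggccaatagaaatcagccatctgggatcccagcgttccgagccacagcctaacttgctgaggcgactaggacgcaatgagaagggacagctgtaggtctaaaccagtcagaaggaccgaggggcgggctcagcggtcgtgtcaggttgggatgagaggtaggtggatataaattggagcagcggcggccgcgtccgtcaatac
Hspa5: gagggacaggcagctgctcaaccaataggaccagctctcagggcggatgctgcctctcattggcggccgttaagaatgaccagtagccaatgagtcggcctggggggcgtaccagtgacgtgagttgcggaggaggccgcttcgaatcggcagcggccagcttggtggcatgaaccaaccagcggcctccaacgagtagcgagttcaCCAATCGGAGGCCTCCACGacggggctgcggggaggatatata
Hsp90b1 holds 1 exact copy on each strand, and the other 3 promoters hold 1 exact copy each, on the opposite strand in Calr. A relation of copy number to the size of the difference was not tested.

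Cytosolic chaperones differed as well. Of 22 tested heat shock chaperones, 4 were lower (18.2%, against 6.16% of all genes) and 1 was higher (4.55%, against 3.12%). Hsp90ab1, the constitutive cytosolic HSP90, was at 1480, 1500 and 1530 CPM in G1-1 control and 1040, 1080 and 1050 CPM in G1-1 overload, against 1520, 1490 and 1540 CPM in G3-1 control and 1500, 1410 and 1500 CPM in G3-1 overload. All 3 G1-1 overload libraries lay below the other 9. Its log2 difference was -0.47 (SE 0.05, adjusted p = 2.2e-08). Lower too were Hsp90aa1 at -0.35 (adjusted p = 3.4e-04), Stip1, the HSP70 to HSP90 adaptor, at -0.38 (adjusted p = 0.00201), and Hsph1, an HSP110 chaperone, at -0.31 (adjusted p = 1.4e-04). Bag3, a co-chaperone of HSP70, was the higher one, at 0.27 (adjusted p = 0.0156).

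Genes of the ribosome were lower with G1-1 overload and not called with G3-1. Of 64 tested cytosolic ribosomal proteins, 25 were lower in the difference (39.1%, against 6.16% of all genes) and 0 were higher, and the called members ran from -1.2 to -0.24. Their median log2 difference was -0.33. With G1-1 overload 43 of the 64 fell and 1 rose, and with G3-1 none was called in edgeR, with 0 at an unadjusted p under 0.05 and 0 in DESeq2. Summed over the list, the level was 19650 to 21370 CPM in G1-1 control and 16240 to 17180 CPM in G1-1 overload, and it was 21450 to 24270 CPM over the 6 G3-1 libraries, so the G1-1 overload libraries were the lowest of the 12.

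Rpl19, a protein of the large subunit, was at 548, 565 and 598 CPM in G1-1 control and 274, 289 and 300 CPM in G1-1 overload, against 613, 608 and 617 CPM in G3-1 control and 646, 575 and 603 CPM in G3-1 overload. The 3 G1-1 overload libraries held about the same low level and none of the other libraries came near it. The log2 difference was -0.98 (SE 0.09, adjusted p = 2.2e-08), with a G3-1 change of -0.01 (95% interval -0.15 to 0.12). Rpl35, which had the largest difference of the list and was picked for it after its values were seen, was at 268 to 300 CPM in G1-1 control, 119 to 133 CPM in G1-1 overload, 305 to 333 CPM in G3-1 control and 292 to 356 CPM in G3-1 overload, with a log2 difference of -1.20 (SE 0.16, adjusted p = 6.5e-06). Rpl21 differed by -0.98 (adjusted p = 6.9e-07), Rpl7 by -0.60 (adjusted p = 1.0e-06) and Rpl5, which binds 5S ribosomal RNA, by -0.60 (adjusted p = 4.0e-06). Ribosomal proteins have many processed pseudogenes, and the authors' counting may divide reads among near-identical copies, which leaves the value of any single member uncertain.

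Nucleolar factors that build ribosomes followed the same direction. Of 35 tested, 11 were lower (31.4%) and 1, Nol6, was higher, with a median log2 difference of -0.23. With G1-1 overload 28 of them fell and 1 rose. Nolc1, a chaperone of nucleolar transport, was at 104, 104 and 111 CPM in G1-1 control and 54.1, 61.8 and 49.5 CPM in G1-1 overload, against 118, 110 and 106 CPM in G3-1 control and 94, 90.8 and 103 CPM in G3-1 overload. It differed by -0.74 (SE 0.09, adjusted p = 1.6e-06). Ncl, nucleolin, was at 369 to 417 CPM in G1-1 control, 193 to 224 CPM in G1-1 overload, 368 to 451 CPM in G3-1 control and 337 to 406 CPM in G3-1 overload, with a log2 difference of -0.75 (SE 0.10, adjusted p = 4.5e-06). Ddx21, an RNA helicase of the nucleolus, differed by -0.48 (adjusted p = 2.8e-05) and Rrp1 by -0.45 (adjusted p = 3.5e-04). The median G3-1 change of the list was -0.14, and none of the 35 was called with G3-1 in edgeR, with 14 at an unadjusted p under 0.05 and 1 called in DESeq2.

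Further families of RNA and translation genes, were chosen after the values were seen and grouped by symbol; among all genes 6.16% were lower and 3.12% higher. Of 52 translation initiation factors 11 were lower (21.2%) and 1 was higher (1.92%), and of 49 DEAD-box and DEAH-box helicases 11 were lower (22.4%) and 0 higher. Of 45 splicing factors 9 were lower (20%) and 0 higher, although the median of the family was -0.01 and 25 of its members had a difference below 0. Of 72 mitochondrial ribosomal proteins 8 were lower (11.1%) and 1 was higher (1.39%). Eif5b, the GTPase that joins the ribosomal subunits, was at 130, 121 and 123 CPM in G1-1 control and 73.7, 63.7 and 58.3 CPM in G1-1 overload, against 122, 127 and 120 CPM in G3-1 control and 119, 123 and 119 CPM in G3-1 overload. Its log2 difference was -0.91 (SE 0.07, adjusted p = 1.0e-09). Eif3a, the scaffold of initiation factor 3, also picked after its values were seen, was at 474 to 480 CPM in G1-1 control, 346 to 361 CPM in G1-1 overload, 461 to 487 CPM in G3-1 control and 466 to 483 CPM in G3-1 overload, with a log2 difference of -0.42 (SE 0.04, adjusted p = 3.9e-08). For both genes the G1-1 overload libraries were the lowest of the 12, and the non-overload libraries of G1-1 were at 111 to 117 CPM of Eif5b and 454 to 459 CPM of Eif3a.

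Genes of the proteasome, which breaks down proteins marked with ubiquitin, were lower as well. Of 35 tested proteasome genes 14 were lower (40%) and 0 higher, with differences from -0.881 to -0.211, and with G1-1 overload 18 fell and 0 rose. None was called with G3-1 in edgeR, with 1 at an unadjusted p under 0.05 and 0 in DESeq2. Psme1, a subunit of the interferon-inducible activator PA28, was at 94.9, 86 and 96.2 CPM in G1-1 control and 49.3, 49 and 51.4 CPM in G1-1 overload, against 101, 89.8 and 99.7 CPM in G3-1 control and 95.8, 90.1 and 103 CPM in G3-1 overload. Its level in G1-1 overload lay below that of every other library. The log2 difference was -0.88 (SE 0.09, adjusted p = 3.9e-08). Psmd7, a lid subunit of the regulatory particle, was at 58.5 to 63.5 CPM in G1-1 control, 36.2 to 40.8 CPM in G1-1 overload, 62.1 to 65.6 CPM in G3-1 control and 58.4 to 60.9 CPM in G3-1 overload, with a log2 difference of -0.62 (SE 0.06, adjusted p = 3.4e-08). Psmd4, a ubiquitin receptor, differed by -0.52 (adjusted p = 6.4e-07) and the ATPase Psmc1 by -0.47 (adjusted p = 4.2e-06).

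**Figure D3:**
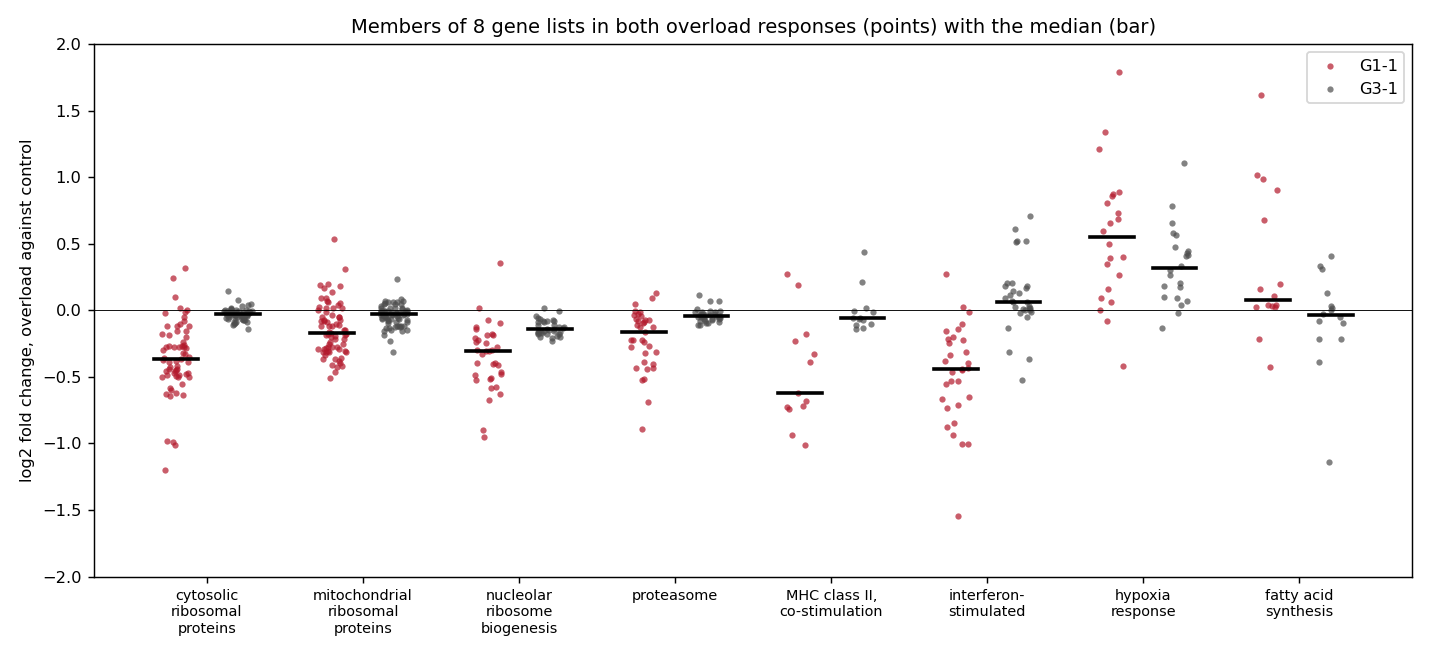
log2 fold change of overload against control for each tested member (points) of 8 gene lists, with G1-1 in red, G3-1 in grey and black bars at the median; mitochondrial ribosomal proteins were grouped by symbol after the values were seen. Medians of the ribosomal protein, proteasome, MHC class II and interferon lists lie below 0 with G1-1 and near 0 with G3-1. That of the nucleolar list lies below 0 with both, at -0.307 with G1-1 and -0.143 with G3-1. That of the hypoxia list lies above 0 with both, that of the fatty acid list lies near 0 with both, and 3 values fall outside the axis range of 2.

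Antigen presentation genes were lower with G1-1 overload. Of 13 tested MHC class II and co-stimulation genes 6 were lower (46.2%) and 0 higher, with a median log2 difference of -0.54, and with G1-1 overload 9 fell. Summed over the list, levels were 770.6 to 830.3 CPM in G1-1 control and 427.9 to 513.1 CPM in G1-1 overload, against 820.3 to 1001 CPM in G3-1 control and 724.8 to 903.6 CPM in G3-1 overload. Cd74, the invariant chain that guides class II molecules, was at 299, 320 and 333 CPM in G1-1 control and 157, 141 and 173 CPM in G1-1 overload, against 313, 377 and 319 CPM in G3-1 control and 341, 314 and 284 CPM in G3-1 overload. All other libraries lay above those of G1-1 overload. Its log2 difference was -0.91 (SE 0.13, adjusted p = 2.8e-05).

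Of the class II chains 4 were called lower, as was Ciita, the coactivator that class II genes need. RT1-Db1, a class II beta chain, was at 70.1, 81.7 and 74 CPM in G1-1 control and 39.7, 33 and 45.4 CPM in G1-1 overload, against 75.8, 99.3 and 74.8 CPM in G3-1 control and 82.7, 84.6 and 61.3 CPM in G3-1 overload, with a log2 difference of -0.80 (SE 0.18, adjusted p = 0.00439). RT1-Da, the alpha chain that pairs with it, differed by -0.68 (adjusted p = 0.0188). RT1-Ba and RT1-Bb, the chains of the other class II molecule, differed by -0.65 (adjusted p = 0.0134) and -0.62 (adjusted p = 0.041). Ciita was at 10.6 to 11 CPM in G1-1 control, 6.49 to 7.6 CPM in G1-1 overload, 10.4 to 12.6 CPM in G3-1 control and 9.5 to 12.9 CPM in G3-1 overload, with a log2 difference of -0.64 (SE 0.18, adjusted p = 0.0245). Ciita and RT1-Bb were picked for the text after their values were seen, and they were called in 7 and 3 of the 12 fits that left out 1 library. The other chains were not called: RT1-DMa was at -0.27, RT1-DMb at -0.54, RT1-DOa at -0.34 and RT1-DOb at 0.06. The class II chains resemble each other, and reads may have been divided among them, which leaves the value of any single chain uncertain. Without the libraries high in Col3a1, Cd74 stayed called at -0.771, and RT1-Db1 (-0.535), RT1-Ba (-0.416) and RT1-Da (-0.45) kept their sign and were no longer called, and Ciita and RT1-Bb lost the call there too.

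The promoters of the 4 lower class II chains are shown because each holds the Y box, an NF-Y site of class II promoters known to work together with the neighbouring X box. The letters CTGATTGG were searched on both strands in the 250 bases before the RefSeq start, and they occurred in 3.19% of 33469 promoters. They occurred in 5 of the 10 list members with a promoter sequence, which were these 4 and 1 gene that was not called. This motif too was chosen after the values had been seen. From RefSeq's GRCr8 assembly, 5′ to 3′ on the strand of the gene with the motif in capitals, the promoters lie at chr20:4560163-4560412 (minus strand) for RT1-Db1, chr20:4515165-4515414 (plus strand) for RT1-Da, chr20:4576807-4577056 (plus strand) for RT1-Ba and chr20:4604119-4604368 (minus strand) for RT1-Bb.
RT1-Db1: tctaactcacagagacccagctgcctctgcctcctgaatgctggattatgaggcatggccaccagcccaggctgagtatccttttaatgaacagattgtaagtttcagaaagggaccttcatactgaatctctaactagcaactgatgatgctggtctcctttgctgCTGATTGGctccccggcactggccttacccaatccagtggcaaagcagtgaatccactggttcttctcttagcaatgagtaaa
RT1-Da: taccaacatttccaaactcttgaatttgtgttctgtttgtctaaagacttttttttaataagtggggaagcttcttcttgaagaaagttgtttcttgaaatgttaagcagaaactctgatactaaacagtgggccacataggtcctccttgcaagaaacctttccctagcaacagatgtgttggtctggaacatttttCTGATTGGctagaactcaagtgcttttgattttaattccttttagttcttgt
RT1-Ba: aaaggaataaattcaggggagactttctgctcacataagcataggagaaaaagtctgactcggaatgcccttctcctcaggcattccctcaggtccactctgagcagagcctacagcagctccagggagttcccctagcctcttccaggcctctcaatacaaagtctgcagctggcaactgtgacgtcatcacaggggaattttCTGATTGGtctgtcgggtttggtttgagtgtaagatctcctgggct
RT1-Bb: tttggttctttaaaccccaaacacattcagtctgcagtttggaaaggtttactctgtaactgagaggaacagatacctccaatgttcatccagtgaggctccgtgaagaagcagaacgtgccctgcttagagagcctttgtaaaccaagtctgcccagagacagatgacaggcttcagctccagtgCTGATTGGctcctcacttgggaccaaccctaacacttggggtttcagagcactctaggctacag
Each holds the motif once, on the strand of the gene and 46 to 83 bases before the start.

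Interferon-stimulated genes had a median log2 difference of -0.48, with 29 of 31 tested members below 0, and 5 of them were called lower (16.1%) and 0 higher. With G1-1 overload 13 fell and 1 rose, and with G3-1 none was called in edgeR, with 1 at an unadjusted p under 0.05 and 0 in DESeq2. Gbp5, a guanylate-binding GTPase induced by interferon gamma, was at 8.02 to 8.94 CPM in G1-1 control, 3.95 to 5.36 CPM in G1-1 overload, 6.73 to 8.42 CPM in G3-1 control and 7.3 to 8.19 CPM in G3-1 overload. Its values in G1-1 overload were apart from the rest, and the difference was -0.89 (SE 0.19, adjusted p = 0.00254). Gbp4 differed by -0.80 (adjusted p = 0.00541), Gbp2 by -0.49 (adjusted p = 0.00884), Bst2, the virus-tethering protein tetherin, by -0.48 (adjusted p = 0.0373), and Irf9, a transcription factor of the type I interferon response, by -0.47 (adjusted p = 0.022). Their promoters were searched for the core of the interferon-stimulated response element, GAAA and GAAA with 2 free bases between them on either strand, chosen after the values had been seen. It occurred in 14 of 21 members with a promoter sequence, against 3.41% of all promoters, and 10 of the 14 were not called in the difference. Without the libraries high in Col3a1 none of these 5 genes passed the test, and all kept their sign.

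The 3 genes of complement C1q, grouped after their values were seen, were all lower. C1qb was at 18.9, 19.1 and 22 CPM in G1-1 control and 9.12, 9.09 and 9.37 CPM in G1-1 overload, against 20.2, 27.9 and 20.5 CPM in G3-1 control and 25, 22 and 20.6 CPM in G3-1 overload. Levels in G1-1 overload lay below those of any other library. The log2 differences were -1.10 (SE 0.24, adjusted p = 0.00246) for C1qb, -1.11 (adjusted p = 0.00421) for C1qc and -0.89 (adjusted p = 0.00954) for C1qa, with G3-1 changes of -0.02, -0.07 and -0.16 that were not called. Without the libraries high in Col3a1, C1qa and C1qc lost the call.

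**Figure D4:**
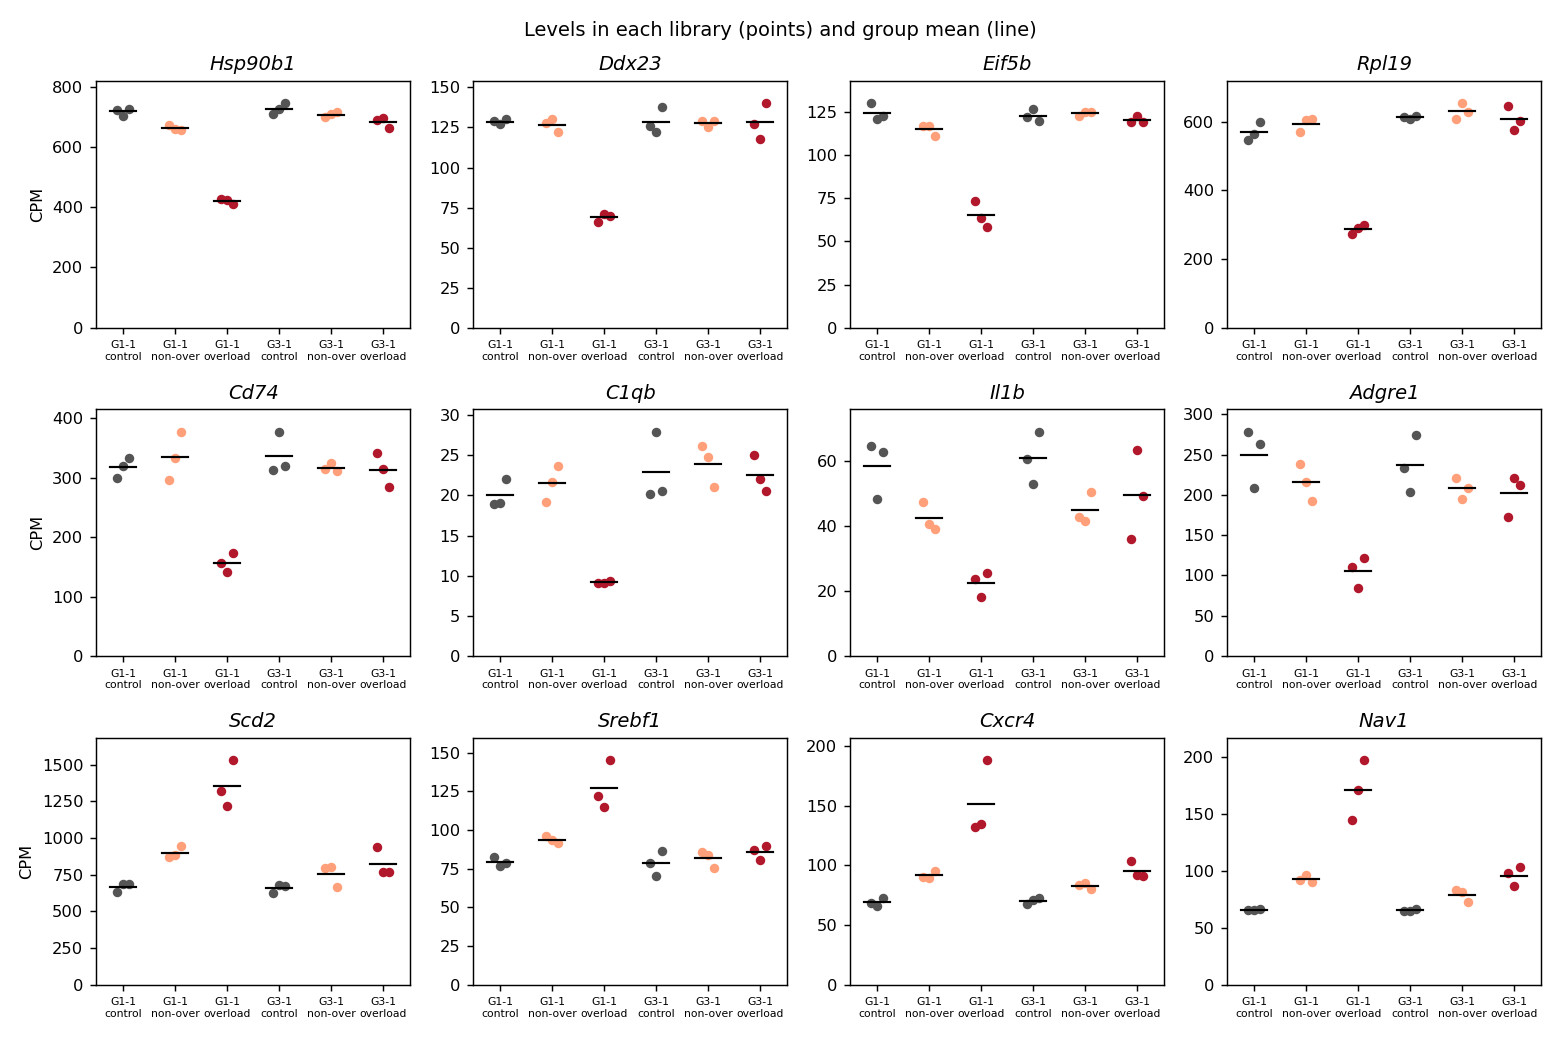
CPM of 12 genes (vertical axes, starting at 0) in each library (points) with the group mean (line), for control, non-overload and overload of G1-1 and G3-1. In the upper 8 panels the G1-1 overload libraries lie below the other 5 groups, as for Hsp90b1 at 409 to 426 CPM; in the lower 4 panels they lie above them, as for Scd2 at 1220 to 1530 CPM.

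Genes of the inflammasome, a complex that matures inflammatory cytokines, were called lower or not at all. Of 15 tested inflammasome and pyroptosis genes 5 were lower (33.3%) and 0 higher, and 14 had a difference below 0. Il1b, the inflammatory cytokine that inflammasomes mature, was at 64.6, 48.2 and 62.7 CPM in G1-1 control and 23.7, 18.2 and 25.5 CPM in G1-1 overload, against 60.5, 52.8 and 68.9 CPM in G3-1 control and 35.9, 63.3 and 49.1 CPM in G3-1 overload. The G1-1 overload libraries were the lowest of the 12, and the G3-1 groups overlapped. Its log2 difference was -1.08 (SE 0.22, adjusted p = 0.00129), and without the libraries high in Col3a1 it was -0.758 and not called. Pycard, the adaptor ASC, was at 17.7 to 19.7 CPM in G1-1 control, 11.1 to 12 CPM in G1-1 overload, 18.1 to 21.9 CPM in G3-1 control and 18.3 to 20.8 CPM in G3-1 overload, with a log2 difference of -0.69 (SE 0.12, adjusted p = 2.4e-04). Nlrp3, a sensor that particles are known to engage, differed by -0.41 (adjusted p = 9.8e-04), Nlrc4 by -0.51 (adjusted p = 0.0242) and Txnip, a thioredoxin-binding protein, by -0.80 (adjusted p = 0.0222). Nlrc4 and Txnip were called in 5 and 6 of the 12 leave-out fits, and of the 5 genes Pycard alone was called without the libraries high in Col3a1.

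Surface receptors changed in both directions. Adgre1, which encodes the macrophage antigen F4/80, was at 278, 209 and 263 CPM in G1-1 control and 111, 84.8 and 122 CPM in G1-1 overload, against 233, 204 and 274 CPM in G3-1 control and 172, 221 and 212 CPM in G3-1 overload. It was lowest in the 3 G1-1 overload libraries, and its difference was -1.0 (SE 0.19, adjusted p = 8.0e-04), and without the libraries high in Col3a1 it was -0.728 and not called. Tlr1, a receptor for bacterial lipopeptides, was low throughout, at 1.36 to 1.71 CPM in G1-1 control, 0.0592 to 0.415 CPM in G1-1 overload, 0.939 to 1.45 CPM in G3-1 control and 0.997 to 1.1 CPM in G3-1 overload, and its difference of -2.60 (SE 0.49, adjusted p = 6.6e-04) was the most negative among the named genes; without the libraries high in Col3a1 it was -1.99 and not called. Fcrl2, an Fc receptor-like gene, was at 16, 13.6 and 16.1 CPM in G1-1 control and 3.35, 2.75 and 3.68 CPM in G1-1 overload, against 12.3, 12.1 and 14.4 CPM in G3-1 control and 9.78, 13.8 and 10.4 CPM in G3-1 overload, with a log2 difference of -2.03 (SE 0.27, adjusted p = 4.2e-06). Of 10 Fc receptor genes Fcgr1a, the high-affinity IgG receptor, was the other lower one, at -0.45 (adjusted p = 0.00358). That makes 2 of the 10 lower (20%, against 6.16% of all genes) and 0 higher. Among 19 tested scavenger and phagocytic receptors 3 were lower (15.8%, against 6.16% of all genes) and 2 higher (10.5%, against 3.12%). Stab1 differed by -0.98 (adjusted p = 0.00492), Cd5l, a secreted protein of tissue macrophages, by -0.87 (adjusted p = 0.0141) and Msr1 by -0.33 (adjusted p = 0.00128). Scarb1, a receptor for high-density lipoprotein, was higher at 0.55 (adjusted p = 0.0327) and Tyro3 at 0.29 (adjusted p = 0.0171). Scarb1 was called in 5 and Tyro3 in 8 of the 12 leave-out fits. Without the libraries high in Col3a1, Fcgr1a (-0.308), Stab1 (-0.921), Cd5l (-0.492), Msr1 (-0.262) and Tyro3 (0.302) kept their sign and were not called.

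Of 20 receptors for chemoattractants and growth factors 4 were lower (20%) and 1 higher (5%). Among the lower ones, the complement receptor C3ar1 differed by -0.68 (adjusted p = 0.0407), the cytokine receptor Il21r by -1.33 (adjusted p = 0.0342) and the fractalkine receptor Cx3cr1 by -1.71 (adjusted p = 0.0365). Cx3cr1 and Il21r were near or below 1 CPM in all 4 groups, and they were called in 5 and 6 of the 12 leave-out fits. C3ar1 was called in 5 of those fits. Without the libraries high in Col3a1, C3ar1 (-0.527), Il21r (-1.69) and Cx3cr1 (-1.75) kept their sign and were not called. Cxcr4, the receptor for CXCL12, was the higher one. It was at 68.7, 65.8 and 72.8 CPM in G1-1 control and 132, 135 and 188 CPM in G1-1 overload, against 67.4, 70.9 and 72.8 CPM in G3-1 control and 104, 91.9 and 91.1 CPM in G3-1 overload. Levels rose with both particles and further with G1-1, and the difference was 0.70 (SE 0.13, adjusted p = 3.6e-04). Cxcr1, a receptor for neutrophil-attracting chemokines, was at 157 to 171 CPM in G1-1 control, 280 to 349 CPM in G1-1 overload, 139 to 172 CPM in G3-1 control and 182 to 200 CPM in G3-1 overload, with a log2 difference of 0.63 (SE 0.12, adjusted p = 8.1e-04).

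Some eicosanoid enzymes were lower: 5 of 16 tested genes of the prostaglandin and leukotriene pathway (31.2%) were called lower and 0 higher. The difference was above 0 in 6 of the 16. Alox5, which starts leukotriene synthesis, was at 28.6, 25.7 and 27.7 CPM in G1-1 control and 15.8, 12.8 and 13 CPM in G1-1 overload, against 26.5, 26 and 30.7 CPM in G3-1 control and 25.8, 24 and 24.3 CPM in G3-1 overload. Again the lowest 3 values were those of G1-1 overload, and the difference was -0.82 (SE 0.13, adjusted p = 9.7e-05), which was not called without the libraries high in Col3a1. Alox15 differed by -0.67 (adjusted p = 0.00601), Ptgs1, a cyclooxygenase, by -0.38 (adjusted p = 0.0145), Tbxas1, the thromboxane synthase, by -0.26 (adjusted p = 0.0247) and Hpgds, a prostaglandin D synthase, by -0.79 (adjusted p = 0.035). Without the libraries high in Col3a1, Alox15 (-0.481), Tbxas1 (-0.199) and Hpgds (-0.603) kept their sign and were not called. Of 29 genes of the NRF2 and glutathione list 5 were lower (17.2%) and 0 higher, and with the fibroblast marker level as a covariate 5 were lower and 2 higher. The summed level of the list was higher in overload than in control with G1-1, at 27680 to 33920 CPM against 24060 to 26190 CPM, and it overlapped with G3-1, at 25350 to 30970 CPM against 22900 to 28640 CPM. They were Nfe2l2, which encodes NRF2 itself, at -0.34 (adjusted p = 0.00896), Gclc, an enzyme of glutathione synthesis, at -0.42 (adjusted p = 0.0272), the quinone reductase Nqo1 at -0.42 (adjusted p = 0.0387), Taldo1 at -0.29 (adjusted p = 0.0141) and Sod1 at -0.32 (adjusted p = 0.0391). Among 10 genes of the aryl hydrocarbon receptor list 2 were lower (20%, against 6.16% of all genes) and 0 higher. Ahrr was the lower one beside Nqo1, at -0.89 (adjusted p = 0.048). Ahrr was called in 3 of the 12 leave-out fits, Nqo1 in 4, Gclc and Sod1 in 5, Hpgds in 5 and Tbxas1 in 8. Of the genes named from these last 2 lists, Taldo1 alone was called without the libraries high in Col3a1.

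Genes called higher included desaturases and regulators of fatty acid synthesis. Of 16 tested genes of that list 4 were higher (25%, against 3.12% of all genes) and 0 lower, with a median log2 difference of 0.17. Scd2, a stearoyl-CoA desaturase, was at 635, 689 and 684 CPM in G1-1 control and 1320, 1220 and 1530 CPM in G1-1 overload, against 622, 679 and 672 CPM in G3-1 control and 942, 768 and 769 CPM in G3-1 overload. It rose with both particles, and more with G1-1, by 1.02 against 0.33 on the log2 scale. Its difference was 0.69 (SE 0.11, adjusted p = 5.5e-05). Scd, the paralogue of Scd2, was at 2.16, 1.57 and 2.05 CPM in G1-1 control and 5.14, 5.21 and 7.33 CPM in G1-1 overload, against 1.5, 2.15 and 1.77 CPM in G3-1 control and 2.91, 2.14 and 2.16 CPM in G3-1 overload, with a log2 difference of 1.21 (SE 0.29, adjusted p = 0.0064). Srebf1, the transcription factor of this pathway, was at 77 to 82.7 CPM in G1-1 control, 115 to 145 CPM in G1-1 overload, 70.5 to 86.2 CPM in G3-1 control and 80.5 to 89.7 CPM in G3-1 overload, with a log2 difference of 0.55 (SE 0.10, adjusted p = 3.2e-04). Fads1, a desaturase of polyunsaturated fatty acids, differed by 0.60 (adjusted p = 0.035); it was called in 4 of the 12 leave-out fits and was not called without the libraries high in Col3a1.

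Of 25 cholesterol genes 4 were higher (16%) and 1 was lower (4%). Lss, which closes the sterol rings, differed by 0.30 (adjusted p = 0.03), Sc5d by 0.28 (adjusted p = 0.0165) and Pmvk, an earlier enzyme of the pathway, by -0.51 (adjusted p = 0.0111). Of 46 lysosomal genes 7 were higher (15.2%) and 2 lower (4.35%), and with the fibroblast marker level as a covariate 16 were higher and 2 lower. Mcoln1, a lysosomal calcium channel, was at 36.2 to 38.7 CPM in G1-1 control, 48.7 to 61 CPM in G1-1 overload, 32 to 36.5 CPM in G3-1 control and 36.9 to 38.4 CPM in G3-1 overload, with a log2 difference of 0.40 (SE 0.09, adjusted p = 0.00226). Smpd1, the acid sphingomyelinase, differed by 0.33 (adjusted p = 0.00506), and the cathepsins Ctsh and Ctsc were lower, at -0.31 (adjusted p = 0.00137) and -0.53 (adjusted p = 0.00548). Among 18 vacuolar ATPase subunits Atp6v0b was higher at 0.41 (adjusted p = 0.021), Atp6v0c was higher at 0.33 (adjusted p = 0.0277) and Atp6v1g1 was lower, at -0.43 (adjusted p = 0.00206), which makes 11.1% higher and 5.56% lower against 3.12% and 6.16% of all genes. With the fibroblast marker level as a covariate 6 of the 18 were higher and 1 lower. Atp6v0c was called in 4 of the 12 leave-out fits, Lss in 6 and Atp6v0b in 7. Without the libraries high in Col3a1, Ctsc (-0.434), Atp6v1g1 (-0.381), Lss (0.364) and Sc5d (0.335) kept their sign and were not called.

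Other genes called higher had varied roles. Nav1, a microtubule-binding protein known from neurons, was at 65.6, 65.3 and 66.8 CPM in G1-1 control and 145, 171 and 197 CPM in G1-1 overload, against 64.5, 64.4 and 66.7 CPM in G3-1 control and 97.9, 86.4 and 103 CPM in G3-1 overload. It rose with both particles, by 1.38 and 0.56 on the log2 scale, and it differed by 0.82 (SE 0.10, adjusted p = 1.6e-06). Irs2, an adaptor of insulin signalling, was at 71.5 to 75.2 CPM in G1-1 control, 118 to 164 CPM in G1-1 overload, 70.3 to 70.9 CPM in G3-1 control and 77.4 to 90.7 CPM in G3-1 overload, with a log2 difference of 0.67 (SE 0.11, adjusted p = 9.2e-05). Gdf15, a stress-induced cytokine, was at 18.4, 17.2 and 19.8 CPM in G1-1 control and 31.6, 31.2 and 59.1 CPM in G1-1 overload, against 19.9, 17.5 and 20.2 CPM in G3-1 control and 27.1, 17.3 and 19.9 CPM in G3-1 overload. The highest of its values came from replicate 3 of G1-1 overload, without which the gene was not called, and the difference was 0.98 (SE 0.25, adjusted p = 0.0103). Mmp8, a collagenase, was at 11.2, 10.3 and 10.7 CPM in G1-1 control and 27.4, 25.8 and 33.1 CPM in G1-1 overload, against 11, 10.8 and 11.5 CPM in G3-1 control and 15.1, 21.4 and 20.5 CPM in G3-1 overload; it rose with both particles and differed by 0.64 (SE 0.15, adjusted p = 0.00539). Sh2d3c, an adaptor of cell migration, rose with both as well and differed by 0.53 (adjusted p = 1.1e-04). The rest of the higher genes with the smallest p-values rose with G1-1 and were not called with G3-1: Myadm at 0.36, Pcnx1 at 0.42, Lmtk2 at 0.43, the adaptor subunit Ap2a1 at 0.33, the Wnt signalling gene Dvl2 at 0.47 and Lce1l at 0.94.

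**Figure D5:**
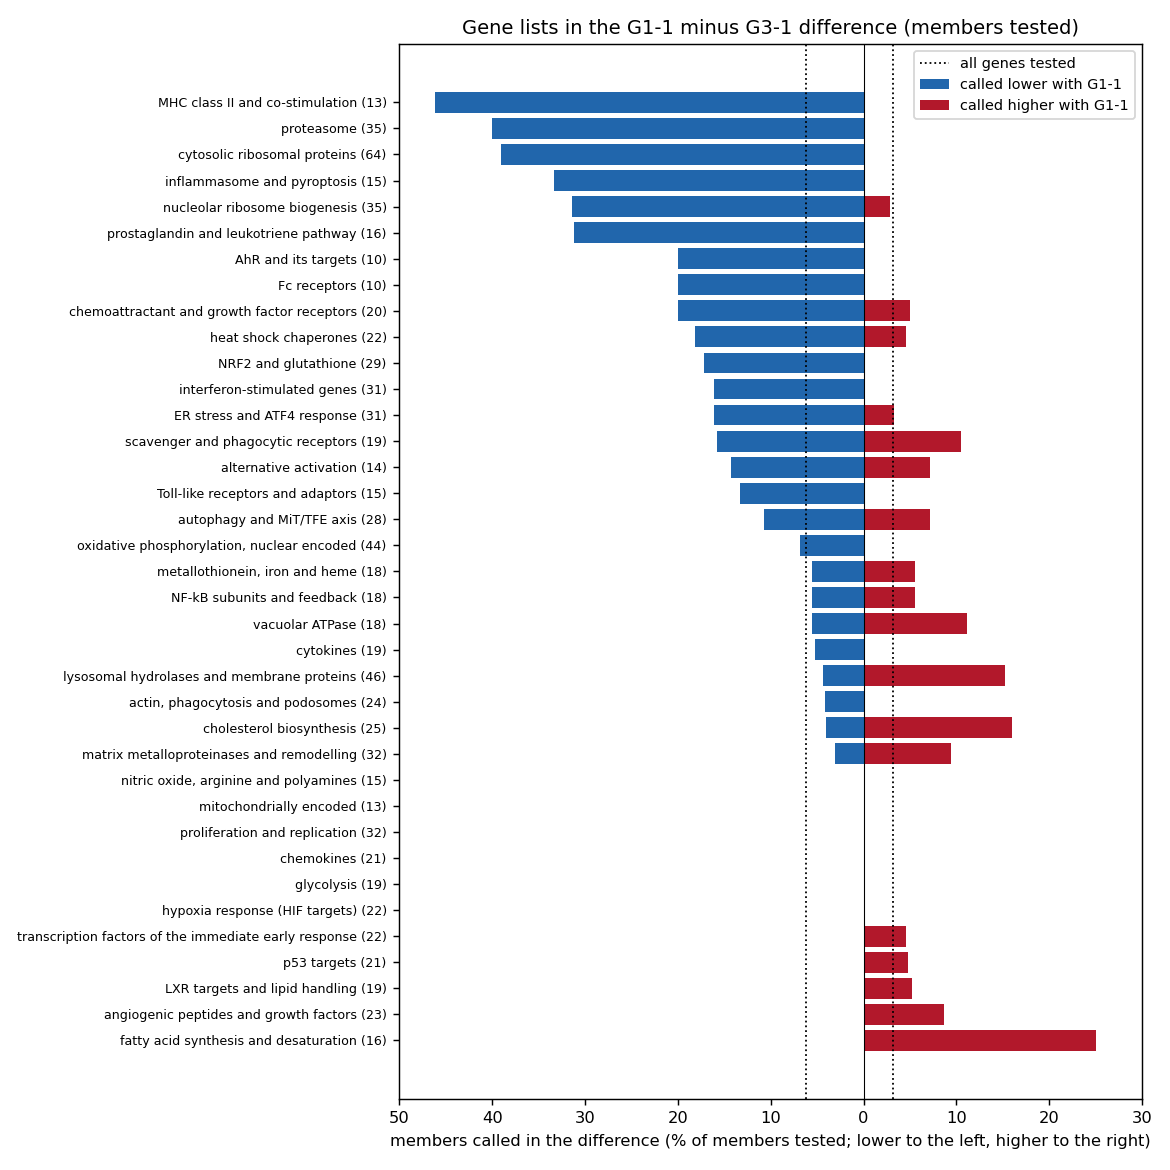
Share of the tested members of each pathway list with 10 or more of them (rows, cell type marker lists and families grouped by symbol not drawn, number tested in brackets) that was called in the difference, lower to the left in blue and higher to the right in red, in percent; dotted lines mark all genes tested, 6.16% lower and 3.12% higher. MHC class II (46.2%), proteasome (40%) and cytosolic ribosomal protein genes (39.1%) have the largest lower shares of the lists drawn, and fatty acid synthesis genes (25%) have the largest higher share.

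Of 21 identity genes 2 were higher (9.52%) and 1, Adgre1, was lower (4.76%). The higher ones were the transcription factors Bhlhe41, which supports the self-renewal of alveolar macrophages in mice, at 0.32 (adjusted p = 0.0476) and Cebpb at 0.30 (adjusted p = 0.0499). Each was called in 3 of the 12 leave-out fits, Cebpb was not called without the libraries high in Col3a1, and Bhlhe41 was not called with a replicate block within each particle. Of 28 autophagy genes 2 were higher (7.14%) and 3 lower (10.7%), and with the fibroblast marker level as a covariate 6 were higher and 3 lower. Atg9a, the membrane protein of forming autophagosomes, was higher at 0.34 (adjusted p = 0.00408) and Fnip2, a partner of folliculin, at 0.38 (adjusted p = 0.0346). Becn1, of the kinase complex that starts autophagosomes, was lower at -0.38 (adjusted p = 2.5e-06), the autophagy receptor Optn at -0.36 (adjusted p = 0.0166) and the transcription factor Mitf at -0.41 (adjusted p = 0.00381). Fnip2 was called in 6 of the 12 leave-out fits, and Fnip2, Optn and Mitf were not called without the libraries high in Col3a1. Of 44 nuclear genes of oxidative phosphorylation 3 were lower (6.82%, near the 6.16% of all genes).

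A few genes moved in opposite directions. Tchh, trichohyalin, was at 49.9, 51.1 and 51.1 CPM in G1-1 control and 37.2, 42.6 and 44.2 CPM in G1-1 overload, against 49.9, 43.5 and 47.9 CPM in G3-1 control and 62.5, 56.5 and 70 CPM in G3-1 overload. The G1-1 overload libraries were below their controls and the G3-1 overload libraries above theirs, with called changes of -0.30 and 0.42 and a difference of -0.72 (SE 0.13, adjusted p = 3.4e-04). Pstpip1, an adaptor of the actin cytoskeleton that binds pyrin, was at 33.3, 31.4 and 33.3 CPM in G1-1 control and 28.7, 27 and 28.4 CPM in G1-1 overload, against 32.3, 31.1 and 31.6 CPM in G3-1 control and 40, 37.2 and 39.1 CPM in G3-1 overload, with called changes of -0.22 and 0.29 and a difference of -0.51 (SE 0.09, adjusted p = 1.3e-04). In both genes the groups of each particle did not overlap. No other named gene was called in both responses with opposite signs. Another 4 genes, Adgb, Prune2, Spart and Parvg, named after their values were seen, rose with G3-1 and were not called with G1-1, with differences of -0.43, -0.59, -0.28 and -0.30. Cmklr1, the chemerin receptor, also named after its values were seen, rose with both particles, by 0.19 with G1-1 and 0.49 with G3-1, and was the gene called lower in the difference that did so; it was called in 4 of the 12 leave-out fits.

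Many genes of hypoxia and glycolysis moved with G1-1 overload, and none of either list passed the test of the difference in edgeR. Of 22 tested genes of the hypoxia response 15 rose with G1-1 and 2 with G3-1, and 0 were called in the difference in edgeR, with 4 at an unadjusted p under 0.05 and 1 called in DESeq2. In 18 of the 22 the difference was above 0, with a median of 0.23 on the log2 scale. Bnip3, a mitophagy receptor induced by HIF, was at 73.2, 96.7 and 83.3 CPM in G1-1 control and 133, 145 and 192 CPM in G1-1 overload, against 82.8, 112 and 68.8 CPM in G3-1 control and 157, 127 and 110 CPM in G3-1 overload. It was higher with G1-1 overload than in any G1-1 control, the G3-1 groups overlapped, and the difference was 0.31 (SE 0.23, adjusted p = 0.491), with a 95% interval of -0.16 to 0.77 that does not show equal responses. Pfkfb3, an activator of glycolysis, differed by 0.45 (SE 0.16, adjusted p = 0.0701) with an interval of 0.13 to 0.77, and Pdk1, which limits entry of pyruvate into mitochondria, by 0.23 (SE 0.16, adjusted p = 0.458) with an interval of -0.10 to 0.55, and these 3 genes were picked after their values were seen. Of 19 glycolysis genes 14 rose and 1 fell with G1-1, 1 rose with G3-1, and 0 were called in the difference in edgeR, with 3 at an unadjusted p under 0.05 and 0 in DESeq2. None of 21 chemokines, 32 proliferation genes or 13 mitochondrially encoded genes was called in the difference in edgeR either. In edgeR 1, 2 and 2 of them had an unadjusted p under 0.05, and DESeq2 called 0, 0 and 1. Few of them were called with G1-1 overload, where 28.1% of all genes were. There 3 chemokines rose, 2 proliferation genes rose and 2 fell, and 1 mitochondrially encoded gene rose. All 13 mitochondrially encoded genes had a difference above 0, with a median of 0.28 on the log2 scale. Their summed level varied between libraries. It was 52310, 40190 and 47470 CPM in G1-1 overload, against 38060 to 42970 CPM in G1-1 control. In G3-1 overload it was 41120, 45600 and 29460 CPM, against 37230 to 43470 CPM in G3-1 control, with the lowest value in replicate 3 of G3-1 overload. With the fibroblast marker level as a covariate 1 glycolysis gene was higher and 3 proliferation genes were lower.

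The largest differences outside the groups above were found mostly in genes at low levels. Apol3, of the apolipoprotein L family, was at 16, 15.3 and 16 CPM in G1-1 control and 8.48, 9.95 and 7.79 CPM in G1-1 overload, against 13.7, 15.7 and 13.4 CPM in G3-1 control and 18.2, 17.2 and 19.5 CPM in G3-1 overload. It was lowest in G1-1 overload and highest in G3-1 overload, and all 4 groups but the 2 controls were apart, with a log2 difference of -1.21 (SE 0.19, adjusted p = 6.1e-05). Tnnt1, a troponin of slow muscle, was at 1.75 to 2.44 CPM in G1-1 control, 0.859 to 1.21 CPM in G1-1 overload, 2.38 to 2.93 CPM in G3-1 control and 2.83 to 3.22 CPM in G3-1 overload, with a log2 difference of -1.23 (SE 0.26, adjusted p = 0.00234). Cadm3, a cell adhesion molecule, was at 1.42 to 1.64 CPM in G1-1 control, 0.547 to 0.574 CPM in G1-1 overload, 1.38 to 1.72 CPM in G3-1 control and 1.16 to 1.82 CPM in G3-1 overload, with a log2 difference of -1.41 (SE 0.34, adjusted p = 0.00693), and Pole3, a subunit of DNA polymerase epsilon, at 2.2 to 2.8 CPM in G1-1 control, 0.821 to 1.54 CPM in G1-1 overload, 1.56 to 2.09 CPM in G3-1 control and 2.06 to 3.23 CPM in G3-1 overload, with a log2 difference of -1.52 (SE 0.35, adjusted p = 0.00475). The G1-1 overload libraries of these 4 genes lay below all other libraries. Without the libraries high in Col3a1, Tnnt1 (-1.31) and Cadm3 (-1.11) kept their sign and were not called. Zbtb26, a zinc finger gene, was at 2.67, 2.9 and 2.8 CPM in G1-1 control and 4.21, 3.17 and 3.86 CPM in G1-1 overload, against 3.75, 4.48 and 3.54 CPM in G3-1 control and 3.49, 3.29 and 1.97 CPM in G3-1 overload, with a log2 difference of 0.86 (SE 0.20, adjusted p = 0.00621) made of a rise by 0.42 with G1-1 and a G3-1 value of -0.43 that was not called. Klrk1, Emc9, Olr1587, Nid1 and Fzd7 were called in 3 to 8 of the 12 leave-out fits, and Abca5 in 11.

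The 2 largest positive differences belonged to genes of connective tissue cells and had their highest values in single libraries. Lum, the matrix proteoglycan lumican, was at 0, 0.0261 and 0 CPM in G1-1 control and 0.0319, 0.415 and 0 CPM in G1-1 overload, against 0.051, 9.79 and 0 CPM in G3-1 control and 0.0577, 0 and 0 CPM in G3-1 overload. Its value in replicate 2 of G3-1 control stood alone, and that library had the highest Col3a1 level. The fitted difference of 10.81 (SE 3.16, adjusted p = 0.0321) rests on groups with counts at or near 0. Mmp3, the matrix metalloproteinase stromelysin, was at 0.419, 0.131 and 0.194 CPM in G1-1 control and 0.255, 36.3 and 0.0608 CPM in G1-1 overload, against 5.92, 0.724 and 0.225 CPM in G3-1 control and 5.31, 0.346 and 0.0695 CPM in G3-1 overload. Its value in replicate 2 of G1-1 overload, another library with high Col3a1, was the highest, and the difference was 5.94 (SE 1.93, adjusted p = 0.0495); without that library it was -0.327. Both genes lost the call with the fibroblast marker level as a covariate and in 7 of the 12 leave-out fits. Col3a1 was at 0 in 5 of the 6 G1-1 libraries and was not called (adjusted p = 0.272), and Lum was the 1 of 16 tested fibroblast and matrix genes to be called.

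Markers of other cell types were also counted. In the difference 2 of 8 tested neutrophil markers were higher (25%, against 3.12% of all genes), Cxcr1 and Mmp8. The neutrophil granule genes Mpo, Elane, Ltf and Ngp and the calgranulin S100a9 were below 1 CPM in all 12 libraries. The summed level of the neutrophil list was 1309 to 1610 CPM in G1-1 overload, against 939.7 to 1016 CPM in G1-1 control, 1015 to 1106 CPM in G3-1 overload and 772.8 to 964.2 CPM in G3-1 control. Relative to plain library totals, the sum was mostly Mmp9 (638 to 1150 CPM over the 12 libraries) and Cxcr1 (145 to 330 CPM). Mmp9 was not called in the difference. The T and NK lymphocyte list had 1 lower member of 7 tested (14.3%, against 6.16% of all genes). It was Cd4, at -0.64 (adjusted p = 0.00897), a gene that macrophages also express in rats. Batf3, a dendritic cell factor, was lower at -1.81 (adjusted p = 0.028) and was below 1 CPM in every library. For the airway epithelial list 0 of 14 members were called in the difference in edgeR, with 1 at an unadjusted p under 0.05 and 0 in DESeq2. With G1-1 overload 4 of them fell, Krt14 by 0.88, Krt15 by 2.16, Tp63 by 1.63 and Dsp by 0.50 on the log2 scale, and with G3-1 none was called in edgeR, with 2 at an unadjusted p under 0.05 and 0 in DESeq2. The list had summed levels of 1879 to 2732 CPM in G1-1 overload and 2229 to 3291 CPM in the other groups, which overlap. The part of these cell types in the differences was not tested.

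With the fibroblast marker level as a covariate, 1320 of the 1355 genes were called again with the same sign. Without the 8 libraries of the series that were high in Col3a1, 597 of the 1355 were called and 1353 kept their sign. In all 12 fits that each left out 1 library, 757 were called. Of the genes in the lower groups, Rpl19, Psme1, Hsp90b1 and Cd74 passed in each of the 12 fits, and the class II gene RT1-Da passed in 7 of them.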

How the data were processed

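RNA of 36 cultures was measured by sequencing of ribosomal RNA-depleted total RNA (150 ng input, per the labels' protocols). The deposited values are expected counts per gene, which the authors estimated from their reads; the submitters' processing notes name FastQC, MultiQC, Salmon and the rat build Rnor_6.0, with versions not given in the sources used here. Among the deposited values, 30.5% had decimals, and they were rounded to whole counts for the tests. Totals ran from 26096983 to 43205421 counts per library, so low genes carry more counting error. Library columns were matched to samples by the names in the labels.

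edgeR 4.0.16 (R 4.3.3, limma 3.58.1) fitted quasi-likelihood models to all 36 libraries with 1 coefficient for each of 12 groups, which leaves 24 residual degrees of freedom and 1 shared estimate of the spread. Genes with low counts were removed with filterByExpr (count minimum 10, total minimum 15), libraries were scaled by TMM, and p-values were adjusted over 14606 of 23487 genes by the Benjamini-Hochberg method with a threshold of 0.05. The difference is (G1-1 overload − G1-1 control) − (G3-1 overload − G3-1 control). Intervals are 95% intervals of the fit. Alternatives were DESeq2 1.42.0, DESeq2 size factors in edgeR, no filter, a fit of the 12 libraries alone, replicate blocks, a fibroblast marker covariate, leaving out libraries with Col3a1 above 10 CPM, and leaving out each library. No pair of replicates agreed within sampling noise (chi-square per degree of freedom 6.55 to 35.4). Of the symbols tested, 12721 matched RefSeq as written and 32 more after a point was read as a hyphen.

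The comparison, its lists and its tests were chosen with earlier results of these data known. From called genes whose highest group mean reached 1 CPM, the text names the 10 largest differences each way, the 10 smallest p-values each way that held with the covariate and kept their sign without any 1 library, those called in opposite directions in the 2 responses, the 4 called members with the smallest p-values of each list (all where 5 or fewer were called, here also below 1 CPM), and Col3a1 with the fibroblast list; other genes are marked as chosen after their values were seen. A few called members of the lists are counted but not reported here by name.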

Additional observations from a re-analysis of the deposited data

Results flagged for a closer look

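The responses of G1-1 and G3-1 to overload differed by the test of the difference in 1355 genes, of which 455 were higher and 900 lower with G1-1. Among called genes whose highest group mean reached 1 CPM, the largest log2 differences above 0 were 10.8 for Lum, 5.94 for Mmp3, 1.28 for Fzd7, 1.21 for Scd, 0.98 for Gdf15, 0.941 for Lce1l, 0.856 for Zbtb26, 0.819 for Nav1, 0.763 for Abca5 and 0.734 for Nid1. The largest below 0 were -2.6 for Tlr1, -2.03 for Fcrl2, -1.6 for Klrk1, -1.52 for Pole3, -1.41 for Cadm3, -1.33 for Il21r, -1.28 for Emc9, -1.23 for Tnnt1, -1.21 for Apol3 and -1.2 for Olr1587. Batf3 (-1.81) and Cx3cr1 (-1.71) lie below that level and are not in this ranking. Each gene ranked is listed because edgeR's test found that the 2 particles' changes differed. Lum and Mmp3 had their highest values in libraries that were also high in Col3a1, and neither was called with the fibroblast marker level as a covariate. Groups of 3 libraries were too small for a test of single outlying libraries.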

How the results depend on the processing

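The direction of the 140 called genes named by the rule, and of the 15 called genes picked after their values were seen, held under all 20 alternatives, except that Mmp3 turned to -0.327 without replicate 2 of G1-1 overload (its highest value was 9.17, without replicate 1 of G3-1 overload), and Lum was too low to be tested without the libraries high in Col3a1 or with the 12 libraries alone. Of the genes named that were not called, RT1-DOb changed sign, with values from -0.129 to 0.329 as each library was left out. The count of genes that differed was 1355; it was 507 with the 12 libraries fitted alone (65 higher, 442 lower) and 787 without the libraries high in Col3a1 (298 higher, 489 lower), where each G3-1 group kept 1 library. With the fibroblast covariate 824 genes were higher. For overload with G3-1 the count of 83 became 208 in DESeq2, 161 with the covariate, and 0 both with the 12 libraries alone (1170 at an unadjusted p under 0.05 in edgeR) and without the libraries high in Col3a1 (1180). Between the controls 15 genes were called in DESeq2. With each library left out in turn, the counts ran from 1031 to 1418 for the difference, 253 to 520 for higher, 766 to 919 for lower, 2931 to 4212 for G1-1, 26 to 233 for G3-1 and 0 to 4 between the controls, the last without replicate 3 of G3-1 control. Samples share replicate numbers, and whether these pair them was not settled. Deviations of control and overload libraries with the same number correlated at 0.0339 to 0.11 for G1-1 and 0.0993 to 0.542 for G3-1. With G3-1, replicates 1 and 2 were high in Col3a1 in both control and overload, and replicate 3 was in neither. With a replicate block the difference had 1403 calls and the controls 2, and with a replicate block within each particle 1493 and 1. Of 140 named genes tested, 72 lost the call with the 12 libraries alone, 67 without the libraries high in Col3a1 and 6 with the covariate. The causes of these changes were not tested. Genes below about 1 CPM rest on few counts, and their differences are the least precise.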
